A study of Homo sapiens with 9 samples.

Results

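The set described here comprises the matrix metalloproteinases (MMPs), the ADAM and ADAMTS proteases, the TIMP inhibitors, and the plasminogen activators PLAU and PLAT with the urokinase receptor PLAUR. Members were all genes whose platform symbol is MMP, ADAM, ADAMTS or TIMP followed by a digit, plus the last 3, without pseudogenes and antisense or divergent transcripts. This gave 65 of 19775 genes and 148 of 54613 probe sets, namely 22 MMPs, 18 ADAMs, 18 ADAMTS genes, 4 TIMPs and the 3 genes of the plasminogen activation system. Another 21 probe sets of 10 pseudogenes and antisense or divergent transcripts were left out, as were 2 probe sets that name several genes.

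Transcripts were measured on single-colour arrays in HuCCT1 cells, a long-standing human line of cholangiocarcinoma, the carcinoma of the bile ducts. In 5 samples the cells carried a vector for YAPS127A, a constitutively active form of the transcriptional co-activator YAP1, and in 4 samples they carried an empty vector. All 9 came from one cell line kept in the same serum-containing medium, and the design asks which transcripts differ when active YAP1 is overexpressed. Replicate numbers are given, but no separate cultures or transfections are named, nor whether the cells were a clone or a pool. The p-values therefore measure variation among these samples alone, and that variation may be technical. YAP1 itself was not detectably higher in the samples labelled YAPS127A. Its brightest probe set had 12.64, 12.66, 12.75, 12.67 and 12.81 there, against 12.57, 12.64, 12.51 and 12.51 in the empty vector samples. The groups touched without overlapping, and the difference of +0.15 (SE 0.06) did not pass in limma (adjusted p = 0.121). Neither of its other probe sets passed (+0.16 and +0.03), so none of the 3 shows the overexpression that the labels give. Whether these probes lie in the part of the transcript that the vector carries was not tested, and the groups are named as labelled.

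MMPs are zinc endopeptidases, made as inactive precursors and either secreted or held in the membrane, that cut collagens, other matrix proteins and surface proteins. TIMPs occupy their active site. ADAMs are membrane-anchored relatives that shed the extracellular parts of growth factors, receptors and adhesion molecules, and ADAMTS proteases are secreted and cut procollagens and proteoglycans. The plasminogen activators turn plasminogen into plasmin, a serine protease that dissolves fibrin and can activate MMP precursors, and PLAUR holds urokinase, the product of PLAU, at the cell surface. MMPs and urokinase are widely studied in the invasion of carcinomas.

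The promoters of 38 member genes were at hand in RefSeq (GRCh38.p14), as windows of 300 bases from 250 before to 50 after the start site. They were searched on both strands for TGANTCA, the core of sites bound by AP-1 factors, and for GGAATG, the core of sites bound by the TEAD factors through which YAP1 acts; these letters do not overlap each other. MMP7 and MMP10, which were lower with YAPS127A, MMP20, which lies between them and did not pass the test, and MMP14, which was higher, are shown with matches in capitals.
MMP7, chr11:102530698-102530997, strand minus: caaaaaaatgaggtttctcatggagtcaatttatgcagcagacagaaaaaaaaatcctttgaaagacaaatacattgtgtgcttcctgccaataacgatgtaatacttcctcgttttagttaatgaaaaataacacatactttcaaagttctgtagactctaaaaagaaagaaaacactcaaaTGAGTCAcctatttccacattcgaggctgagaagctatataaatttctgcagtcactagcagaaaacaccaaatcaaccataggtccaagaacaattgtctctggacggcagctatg
MMP10, chr11:102780579-102780878, strand minus: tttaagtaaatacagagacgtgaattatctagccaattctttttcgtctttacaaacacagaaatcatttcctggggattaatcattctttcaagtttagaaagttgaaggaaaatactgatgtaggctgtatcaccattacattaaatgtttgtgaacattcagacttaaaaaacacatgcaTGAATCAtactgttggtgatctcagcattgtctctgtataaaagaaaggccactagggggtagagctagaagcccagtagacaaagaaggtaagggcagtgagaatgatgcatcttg
MMP20, chr11:102625283-102625582, strand minus: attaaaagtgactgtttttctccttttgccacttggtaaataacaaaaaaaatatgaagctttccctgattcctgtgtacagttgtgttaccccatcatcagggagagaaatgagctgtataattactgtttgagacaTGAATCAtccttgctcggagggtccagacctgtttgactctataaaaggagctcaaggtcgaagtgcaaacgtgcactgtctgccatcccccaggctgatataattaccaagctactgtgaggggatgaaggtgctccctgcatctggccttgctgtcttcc
MMP14, chr14:22836335-22836634, strand plus: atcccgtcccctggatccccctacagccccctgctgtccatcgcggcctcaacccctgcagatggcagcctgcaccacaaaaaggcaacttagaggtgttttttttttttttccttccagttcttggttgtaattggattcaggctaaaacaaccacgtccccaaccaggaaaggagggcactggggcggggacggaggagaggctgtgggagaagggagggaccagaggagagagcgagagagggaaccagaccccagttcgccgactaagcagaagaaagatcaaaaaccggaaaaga
MMP7, MMP10 and MMP20 each held 1 match to TGANTCA, at positions -67, -67 and -112 counted from the start site, and MMP14 held none. PLAUR and ADAMTS12 also held 1, so that the match was found in 5 of 38 member genes. Counted by window it was in 5 of the 40 of members, against 7.71% of all 35116 windows. By call, TGANTCA was in 2 of the 7 lower members with a window, 0 of 2 higher and 3 of 29 that did not pass. The windows of ADAM19, ADAM21, ADAM22, ADAMTS6 and PLAU, which were also lower, held none. GGAATG was found in 5 of the 38 (ADAM17, ADAMTS6, ADAMTS12, ADAMTS13 and ADAMTS20), or 5 of the 40 windows, against 14.0% of all windows. A match is a string of letters, not a measured binding site.

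Values are log2 signals per probe set, and a gene is read from the probe set with its highest mean signal, called its brightest. The arrays had medians of 5.95 to 5.97 and lower quartiles of 4.24 to 4.27. The log2 difference is YAPS127A minus empty vector, with its standard error (SE) from limma. P-values were adjusted by the Benjamini-Hochberg method across the 54613 probe sets, and a gene passed the test when the adjusted value was under 0.05. Probe sets whose mean is not above the median of all probe sets, 5.96, are called dim.

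Cells with YAPS127A had lower signals for MMP7, MMP1 and MMP10, proteases encoded in one cluster on chromosome 11, for ADAM28 and for PLAU. They had modestly higher signals for MMP14, MMP15, MMP19, PLAT and TIMP2. In RNA of whole cultures a different level per cell cannot be told apart from a different share of expressing cells. Of the 65 members, 5 rose (7.69%) and 12 fell (18.5%), against 14.5% and 14.2% of all 19775 genes. In all, 17 members were called (26.2%), close to the 28.7% of all genes, so the number of changes does not set the members apart. At the level of probe sets 35 of 148 were called (23.6%), 14 higher and 21 lower, against 23.9% of all probe sets. The median difference was -0.01 over the members and 0.00 over all genes. The 4 falls of MMP7, MMP1, MMP10 and ADAM28 exceeded 2-fold, and no rise of a brightest probe set did. The 48 members that did not pass differed by -0.31 to +0.26.

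**Figure D1:**
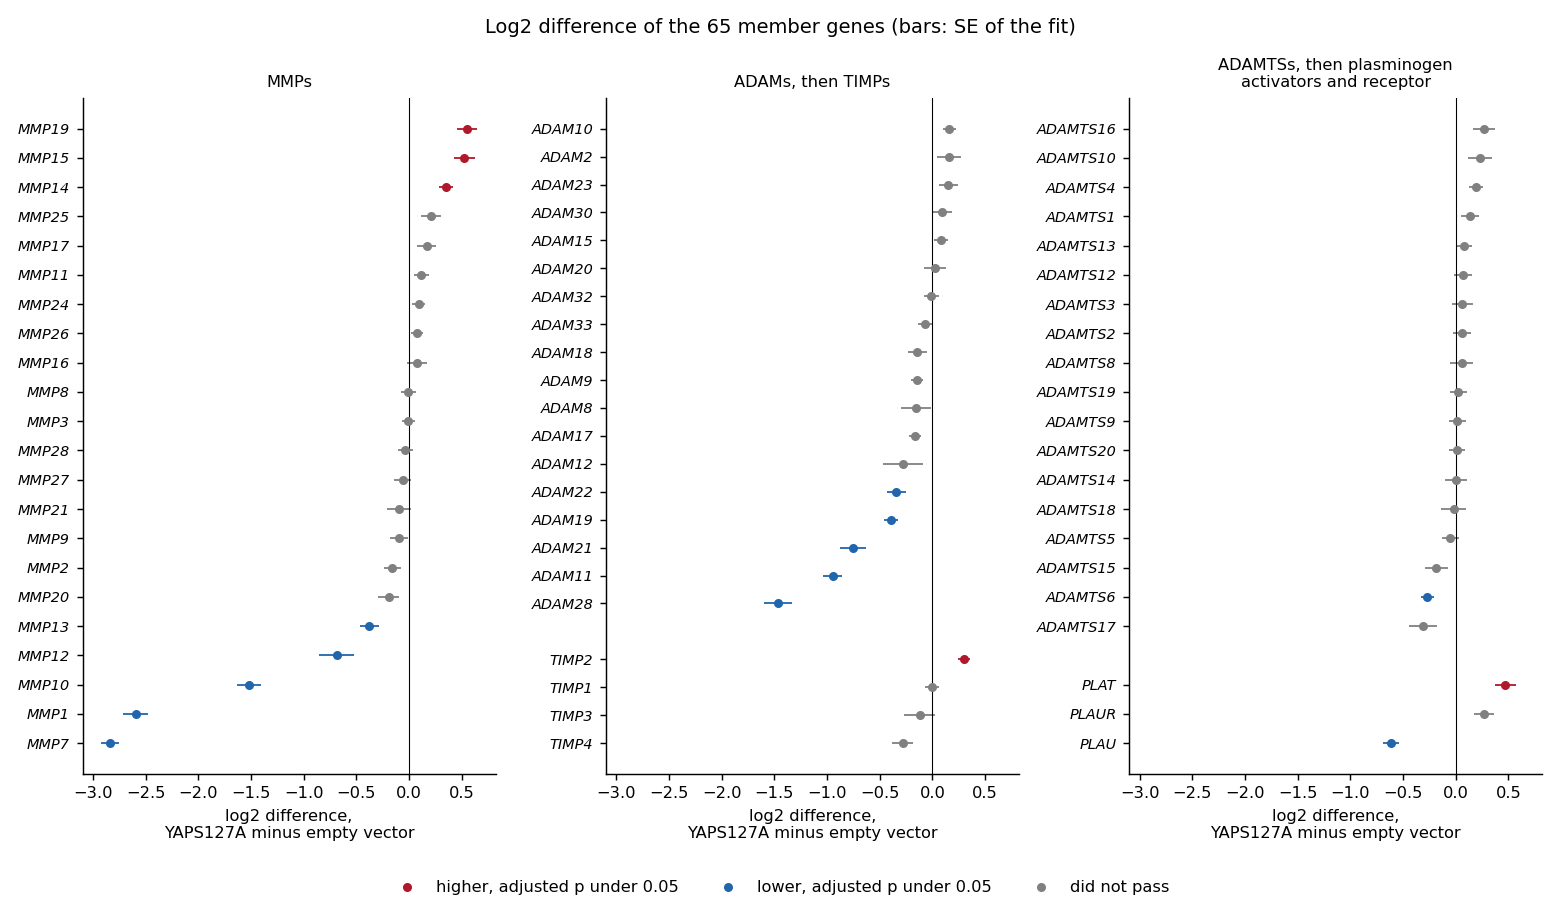
Log2 difference (YAPS127A minus empty vector, x axis) of the brightest probe set of each of the 65 member genes, by family, with the SE of the fit as a bar and colour for the call. MMP7, MMP1, MMP10 and ADAM28 lie below -1 on the left, and no called point on the right passes 0.55.

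MMP7 encodes matrilysin, a small secreted protease made mainly by epithelial cells. Its log2 signals were 8.88, 8.61, 8.73, 8.97 and 8.84 in the YAPS127A samples, against 11.71, 11.71, 11.53 and 11.63 in the empty vector samples. All YAPS127A values lay below all empty vector values, with a gap wider than the range of either group. The means were 8.81 ± 0.14 (SD, n = 5) with YAPS127A and 11.65 ± 0.08 (SD, n = 4) with the empty vector, a difference of -2.84 (SE 0.08, limma adjusted p = 1.05e-09) or 7.17-fold lower. This was the deepest fall among the 148 member probe sets. MMP7, like MMP1 and MMP10 below, is measured by 1 probe set, so the size of its fall has no second measurement.

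MMP1 encodes interstitial collagenase, which cuts fibrillar collagen. It had 9.27, 9.69, 9.77, 9.34 and 9.35 in the YAPS127A samples, against 12.08, 11.87, 12.19 and 12.19 in the empty vector samples. The groups were again separate by more than their ranges. The signal was 6.05-fold lower (-2.60, SE 0.12, limma adjusted p = 3.46e-08).

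MMP10 encodes a stromelysin, with a broad range of matrix substrates. Signals were 4.59, 4.79, 4.67, 4.88 and 4.45 with YAPS127A, against 6.19, 6.03, 6.51 and 6.07 with the empty vector. Every YAPS127A array was lower than every empty vector array, and the YAPS127A arrays lay little above the lower quartiles. The signal was 2.87-fold lower (-1.52, SE 0.11, limma adjusted p = 1.99e-06).

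MMP7, MMP1 and MMP10 belong to a cluster of 9 MMP genes on chromosome 11, in the order MMP7, MMP20, MMP27, MMP8, MMP10, MMP1, MMP3, MMP12 and MMP13 in the RefSeq annotation. Of these, 5 fell, none rose and 4 (MMP20, MMP27, MMP8 and MMP3) did not pass, and of the 13 MMPs elsewhere 3 rose, none fell and 10 did not pass. Among all genes 14.5% were higher and 14.2% lower, and the difference between cluster and other MMPs was not tested. MMP12, the macrophage metalloelastase, differed by -0.69 (SE 0.17, limma adjusted p = 0.00946). It had means of only 2.29 with YAPS127A and 2.98 with the empty vector, below the lower quartiles of the arrays. MMP13, a further collagenase, differed by -0.38 (SE 0.09, adjusted p = 0.00979 in limma) at 4.43 with YAPS127A and 4.81 with the empty vector. The other 4 had means between 3.11 and 4.12 in both groups. The measured genes next to the cluster did not share the fall: TMEM123 differed by +0.08 (limma adjusted p = 0.562) before MMP7 and DCUN1D5 by -0.01 (limma adjusted p = 0.963) after MMP13. Farther out BIRC2, an inhibitor of apoptosis, fell (-0.42), CFAP300 rose (+0.45), and YAP1, also encoded there, did not pass, as described above. The promoter windows of MMP7 and MMP10, printed above, share a match to TGANTCA, and so does that of MMP20, whose signal was low in both groups. The windows of MMP8 and MMP27 held no match, and those of MMP1, MMP3, MMP12 and MMP13 were not used here.

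**Figure D2:**
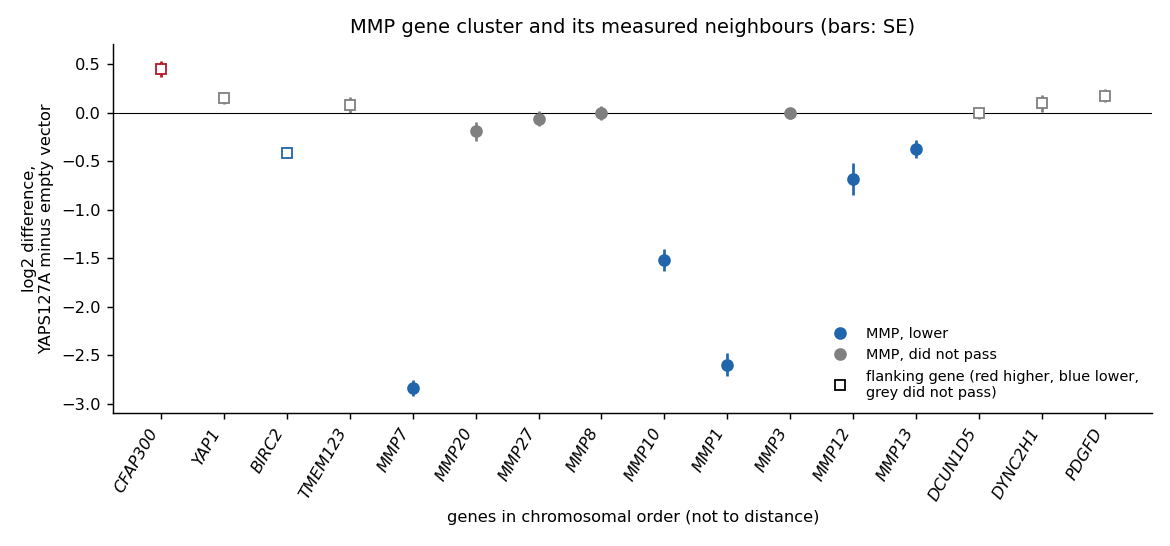
Log2 difference (YAPS127A minus empty vector, y axis) of the 9 MMP genes of the chromosome 11 cluster (filled circles) and of measured flanking genes (open squares), in chromosomal order and not to distance, with SE bars. MMP7, MMP10 and MMP1 lie below -1.5, and the squares on both sides lie between -0.42 and +0.45.

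MMP14 and MMP15, of the membrane type, and MMP19 rose. MMP14 encodes a collagenase of the cell surface that activates the precursor of MMP2. The YAPS127A samples had 8.36, 8.49, 8.34, 8.58 and 8.46, against 8.15, 8.11, 8.07 and 8.04 in the empty vector samples. The groups did not overlap, although the gap was small, and the rise was +0.35 (SE 0.07, limma adjusted p = 0.00205), or 1.28-fold. Of the 4 MMP14 probe sets 3 rose, the other 2 of them by 0.30 and 0.34, and the dimmest differed by +0.04 (adjusted p = 0.714 in limma).

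MMP15, a second membrane-type MMP, had 9.03, 8.72, 8.56, 8.84 and 8.81 with YAPS127A, against 8.13, 8.46, 8.32 and 8.18 with the empty vector. The groups were separate (+0.52, SE 0.10, limma adjusted p = 0.00229). Its neighbours on chromosome 16 lay higher by a median of 0.41, and after subtraction of the neighbours' median MMP15 no longer passed (+0.11, limma adjusted p = 0.450). As the mean of its 2 probe sets it was higher by 0.29.

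MMP19, a secreted protease of basement membrane proteins, had 9.31, 9.55, 9.23, 9.14 and 9.06 with YAPS127A, against 8.69, 8.80, 8.59 and 8.76 with the empty vector. Groups were separate, and the rise was +0.55 (SE 0.10, limma adjusted p = 0.0014). Its other probe set, dimmer, rose by 1.74 (adjusted p = 3.28e-06 in limma), at 6.47 ± 0.14 with YAPS127A (SD, n = 5) against 4.73 ± 0.33 with the empty vector (SD, n = 4). That was the largest rise among the 148 member probe sets, and the mean of both was +1.14. The direction was thus shared and the size was not.

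The gelatinases MMP2 and MMP9, which cut denatured and basement membrane collagen, were near the median of all probe sets and did not pass. MMP2 differed by -0.16 (SE 0.08, limma adjusted p = 0.188). Genes around it on chromosome 16 were higher by a median of 0.46, and after that median was subtracted MMP2 was lower (-0.62, limma adjusted p = 0.000205); it was also called lower without YAPS127A replicate 2 (-0.21, limma adjusted p = 0.0483). MMP9 differed by -0.10 (SE 0.09, limma adjusted p = 0.496). MMP11, a stromelysin found mostly in stroma, did not pass at its brightest probe set (+0.12) but rose at another, by 0.27. MMP24, a membrane-type MMP with signals well above the median of all probe sets (10.93 with YAPS127A and 10.84 with the empty vector), did not pass (+0.09, limma adjusted p = 0.370). The other membrane-type genes MMP16 (+0.07), MMP17 (+0.17) and MMP25 (+0.20) did not pass either. MMP11, MMP16, MMP17, MMP24 and MMP25, like the ADAM12, ADAMTS9, ADAMTS12 and ADAMTS18 values below, were picked after their values were seen.

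**Figure D3:**
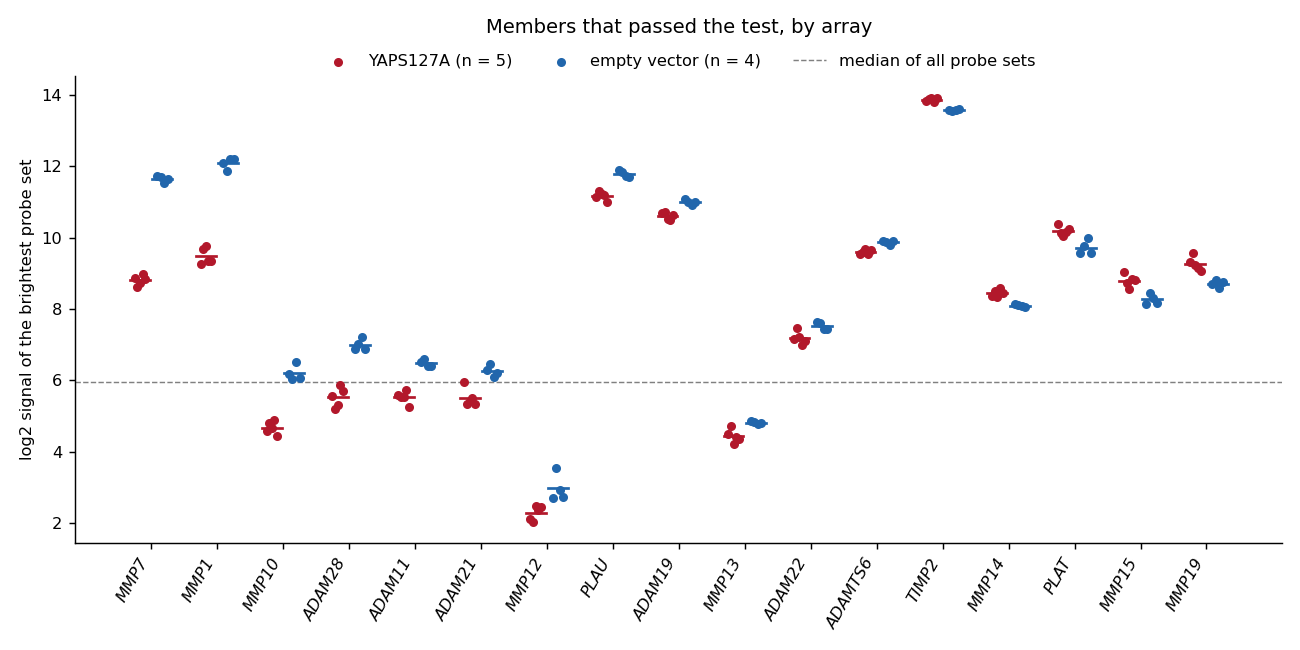
Log2 signal (y axis) on each array for the 17 members that passed the test, ordered by difference, with YAPS127A (5 arrays) left of the empty vector (4 arrays), a bar at each group mean and a dashed line at the median of all probe sets, 5.96. MMP7 and MMP1 change while staying above the dashed line, whereas MMP10, ADAM28, ADAM11 and ADAM21 lie above it with the empty vector only, and MMP12 and MMP13 lie below it in both groups.

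Among the inhibitors TIMP2, which blocks MMPs and also takes part in the activation of MMP2 by MMP14, rose slightly. Its signals were 13.84, 13.89, 13.91, 13.79 and 13.92 with YAPS127A, against 13.58, 13.56, 13.56 and 13.59 with the empty vector. These groups did not overlap (+0.30, SE 0.06, limma adjusted p = 0.00217). A second probe set rose by 0.27, and the third, with wider spread, differed by +0.27 without passing (adjusted p = 0.440 in limma).

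TIMP1, a secreted inhibitor of most MMPs, had 12.73, 12.74, 12.63, 12.85 and 12.73 with YAPS127A, against 12.74, 12.83, 12.70 and 12.68 with the empty vector. The groups overlapped fully, and the difference was -0.00 (SE 0.06, limma adjusted p = 0.987). TIMP3, which binds to the matrix and also inhibits ADAM17, was dim, at 4.78, 4.56, 4.56, 4.57 and 4.12 with YAPS127A, against 4.88, 4.29, 4.86 and 4.52 with the empty vector. These values overlapped too (-0.12, SE 0.15, limma adjusted p = 0.641). TIMP4 differed by -0.28 (SE 0.10) and narrowly missed the threshold (limma adjusted p = 0.0531); the median of its neighbours was -0.39, and with that removed its sign turned (+0.11, limma adjusted p = 0.460). It was called lower under quantile normalization (-0.29) and median centring (-0.29), and without empty vector replicate 4 (-0.34) or YAPS127A replicate 5 (-0.32). It was also called lower without dim probe sets and with means over probe sets. TIMP4 has 1 probe set, and its difference there stayed at -0.28 while only its test changed (limma adjusted p = 0.0305 and 0.0309).

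The plasminogen activators moved in opposite directions. PLAU had 11.14, 11.30, 11.22, 11.19 and 11.00 with YAPS127A, against 11.89, 11.85, 11.71 and 11.68 with the empty vector. Each YAPS127A array was below each empty vector array, and the signal was 1.53-fold lower (-0.61, SE 0.08, limma adjusted p = 0.000107). The second PLAU probe set also fell, by 0.66 on the log2 scale (-0.66). Genes around PLAU on chromosome 10 lay higher by a median of 0.31, and with that removed its difference was -0.92 (limma adjusted p = 5.1e-06).

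PLAT, which encodes the tissue-type activator that works on fibrin, had 10.37, 10.14, 10.05, 10.15 and 10.23 with YAPS127A, against 9.57, 9.76, 9.98 and 9.56 with the empty vector. The groups were separate, with the highest empty vector value close below the lowest YAPS127A one. The rise was +0.47 (SE 0.10, limma adjusted p = 0.00409), or 1.39-fold. Its neighbours lay lower (-0.24), and with their median removed PLAT was higher by 0.70.

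PLAUR had 11.19, 11.43, 11.17, 11.45 and 11.26 with YAPS127A, against 11.21, 11.16, 10.87 and 10.90 with the empty vector. Here the groups overlapped, and the difference of +0.26 (SE 0.10) did not pass (limma adjusted p = 0.0671). Of its 3 probe sets 1 did pass, at +0.35. PLAUR was called higher without dim probe sets and with trend and robust settings, its difference there unchanged (+0.26). It was also called higher as a mean over probe sets (+0.28), with the neighbours' median removed (+0.32) and without empty vector replicate 1 (+0.32).

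Of the 18 ADAMs, 5 fell (27.8%) and none rose. Among all genes 14.2% fell and 14.5% rose, and the gap was not tested. ADAM28, a protease of epithelial and lymphoid cells, had the deepest fall. Its signals were 5.56, 5.19, 5.30, 5.86 and 5.71 with YAPS127A, against 6.87, 7.01, 7.21 and 6.88 with the empty vector. The groups were separate by more than their ranges, and the signal was 2.77-fold lower (-1.47, SE 0.13, limma adjusted p = 9.78e-06). Of its 4 probe sets 2 fell and 2 did not pass, and as their mean it was at -0.54.

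ADAM11 and ADAM22 encode ADAMs without protease activity that act as adhesion and receptor proteins, mainly in the nervous system. ADAM11 had 5.58, 5.54, 5.52, 5.72 and 5.26 with YAPS127A, against 6.52, 6.58, 6.39 and 6.39 with the empty vector. The groups were separate (-0.95, SE 0.09, limma adjusted p = 1.49e-05), and the second probe set fell as well (-1.14). ADAM22 fell at its brightest probe set (-0.34, SE 0.09, limma adjusted p = 0.0198) and at 4 others of 8, while its dimmest rose by 0.25 from levels below the lower quartiles. The call of ADAM22 was lost without empty vector replicate 1 (-0.31, limma adjusted p = 0.0627) or replicate 2 (-0.32, limma adjusted p = 0.0598), and without both arrays with the largest gap between the 3' and 5' actin control probe sets (-0.36, limma adjusted p = 0.0521). That gap, which widens when RNA is degraded, was 1.58 in YAPS127A replicate 1 and 1.69 in empty vector replicate 3, against 0.89 to 1.18 on the other arrays.

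ADAM21, otherwise known from testis, had 5.95, 5.34, 5.42, 5.51 and 5.34 with YAPS127A, against 6.30, 6.47, 6.10 and 6.20 with the empty vector. YAPS127A replicate 1 came near the lowest empty vector array, but the groups did not overlap (-0.76, SE 0.13, limma adjusted p = 0.000873), and its second probe set also fell (-0.33). ADAM19, which sheds neuregulins, fell by less from a bright level (-0.40, SE 0.07, limma adjusted p = 0.00105), at 10.61 ± 0.09 with YAPS127A (SD, n = 5) against 11.00 ± 0.07 with the empty vector (SD, n = 4). The other ADAM19 probe set was dim and did not pass (-0.06, limma adjusted p = 0.624). ADAM19, ADAM22, MMP13 and ADAMTS6 were named after their values were seen, to complete the counts.

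The widely expressed ADAM10, ADAM17, ADAM9 and ADAM15 had signals above the median of all probe sets and did not pass. ADAM10, which cuts Notch receptors and cadherins, differed by +0.16 (SE 0.06, limma adjusted p = 0.0835), at 13.17 ± 0.08 with YAPS127A (SD, n = 5) against 13.01 ± 0.02 with the empty vector (SD, n = 4). ADAM17, which releases TNF and EGF receptor ligands, differed by -0.17 (SE 0.06, limma adjusted p = 0.0613). ADAM9 differed by -0.14 (SE 0.06, limma adjusted p = 0.0907), and its dimmest probe set rose by 0.59. ADAM15 differed by +0.08 (SE 0.07, limma adjusted p = 0.434). The calls at this size depended on the settings: ADAM17 passed under 5 alternatives and ADAM10 and ADAM9 under 2 each, with differences of -0.18 to -0.17, +0.16 and -0.14. ADAM15, whose neighbours lay lower (-0.22), was called higher with their median removed (+0.31, limma adjusted p = 0.00586). The remaining 9 ADAMs did not pass at their brightest probe set, and of these ADAM12 had 1 of 5 probe sets lower (-0.44).

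Most ADAMTS genes did not pass the test. Of 18, 1 fell (ADAMTS6, -0.27, SE 0.06, limma adjusted p = 0.00695), none rose and 17 did not pass, so that 5.56% were called, against 28.7% of all genes, a gap that was not tested. ADAMTS6 no longer passed with the neighbours' median removed (-0.17, limma adjusted p = 0.0697). Its other probe sets were dim and did not pass (-0.10 and -0.33). ADAMTS12, well above the median of all probe sets, was at 11.49 ± 0.16 with YAPS127A (SD, n = 5) against 11.42 ± 0.04 with the empty vector (SD, n = 4), and did not pass (+0.07, limma adjusted p = 0.628). ADAMTS9, which cuts versican, was also bright and differed by +0.02. ADAMTS1, another versican protease, was dim and did not pass (+0.14, SE 0.08, limma adjusted p = 0.290). ADAMTS18 did not pass at its brightest probe set (-0.02), but its second one rose by 0.92 (adjusted p = 0.00131 in limma) from a level below the lower quartiles. ADAMTS15 was called lower without empty vector replicate 2 (-0.31), ADAMTS16 higher without YAPS127A replicate 5 (+0.33), ADAMTS4 higher without empty vector replicate 3 (+0.23), and ADAMTS18 higher as the mean of its probe sets (+0.45). Of the 18, 11 were no brighter than the median of all probe sets.

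**Figure D4:**
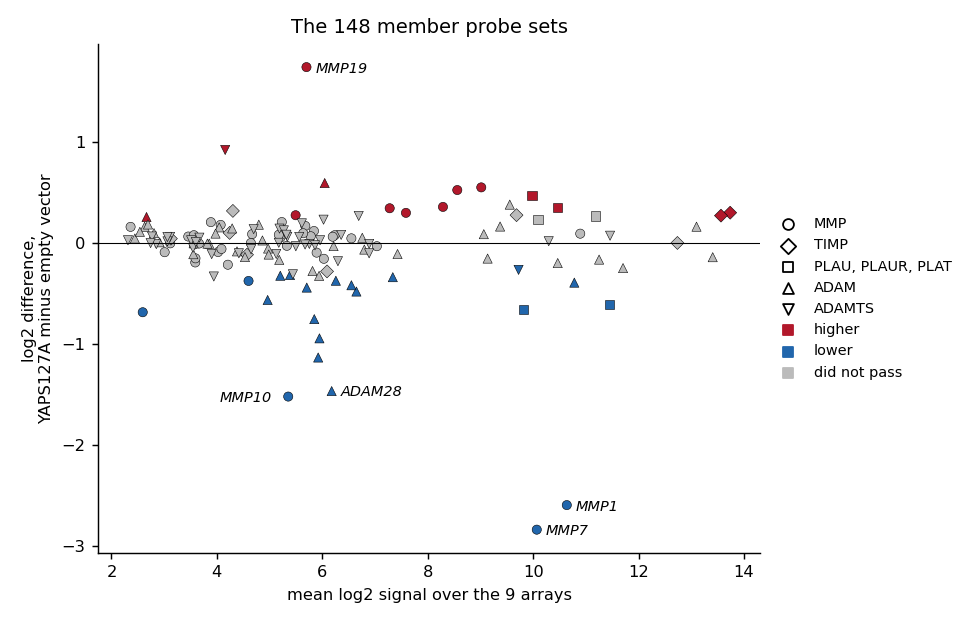
Log2 difference (YAPS127A minus empty vector, y axis) of each of the 148 member probe sets against its mean log2 signal over the 9 arrays (x axis), with shape for the family and colour for the call. The largest rise is the dimmer MMP19 probe set at +1.74, and the lowest points are MMP7 and MMP1, at -2.84 and -2.60.

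In the called members, the called probe sets of one gene mostly gave one direction. Of the 65 members, 21 had only 1 probe set. Of the 17 called members 11 had several probe sets, and in ADAM11, ADAM21, MMP19 and PLAU all of them were called the same way. Only ADAM22 had a probe set called in the other direction. A further 5 genes (ADAM9, ADAM12, ADAMTS18, MMP11 and PLAUR) did not pass at the brightest probe set but had 1 called probe set elsewhere. The called ones of ADAM9 (+0.59) and ADAMTS18 (+0.92) had the opposite sign to the brightest (-0.14 and -0.02).

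The members were also set beside the median difference of up to 50 measured genes around them on the chromosome. Of the 17 called members, MMP15 and ADAMTS6 lost their call with the neighbours' median removed, and 15 kept it with the same sign. For MMP7, MMP1, MMP10, MMP12 and MMP13 the neighbours lay higher, by 0.08, against falls of 0.38 to 2.84. PLAU fell and PLAT rose against the shift of their surroundings. Members that gained a call with the removal were MMP16 (+0.46), ADAMTS4 (+0.42), ADAM2 (+0.36), PLAUR (+0.32) and ADAM15 (+0.31), with MMP2 (-0.62) and ADAM33 (-0.20) lower. ADAM2 was below the lower quartiles, at 2.70 with YAPS127A and 2.54 with the empty vector. Without the removal it differed by +0.16 (limma adjusted p = 0.367).

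**Figure D5:**
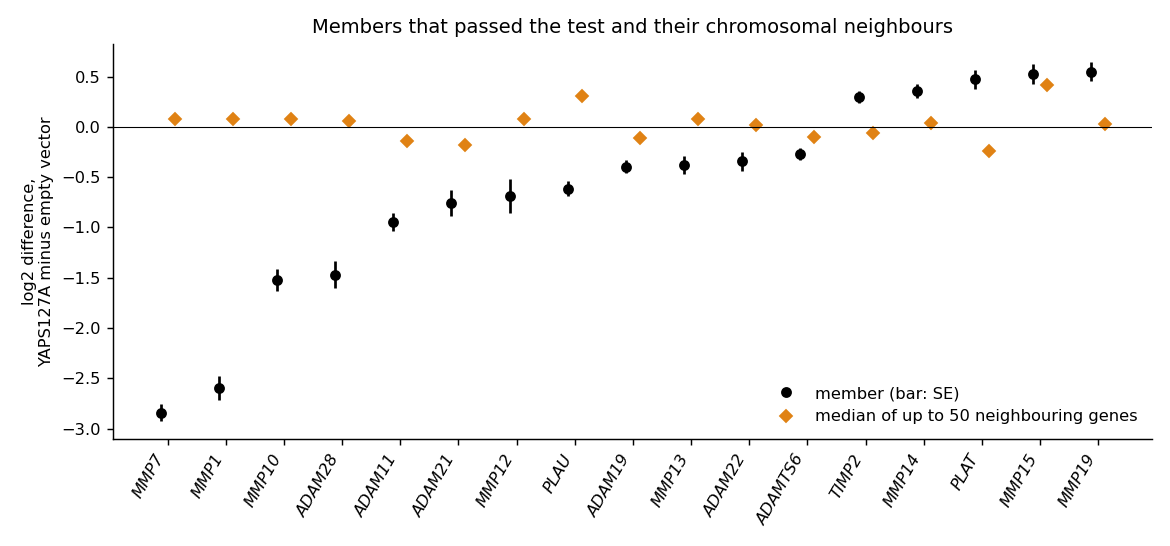
Log2 difference (YAPS127A minus empty vector, y axis) of the 17 members that passed the test (black circles, SE bars) beside the median difference of up to 50 neighbouring genes that are not members (orange diamonds). The diamond of MMP15, at +0.41, lies close to its circle, at +0.52, while those of PLAU and PLAT lie on the other side of 0 from theirs.

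Other genes that act with the members were counted in 6 lists, covering 141 genes that are not members, of which 22 rose (15.6%) and 30 fell (21.3%), or 36.9% in all. Among all genes 14.5% rose and 14.2% fell, or 28.7% in all, and among genes above the median signal 21.0% rose and 19.8% fell. The gaps between these shares were not tested. In the rest of the plasminogen system 4 of 14 measured genes fell and none rose (median -0.12). SERPINE2 (-0.63, SE 0.11, limma adjusted p = 0.000908) and SERPINA5 (-0.58), inhibitors that can block urokinase, fell. SERPINI1, an inhibitor of the tissue-type activator, fell by less (-0.22), and plasminogen itself, PLG, fell too, at 5.36 with YAPS127A and 5.96 with the empty vector (-0.60), but no longer passed with the neighbours' median removed (-0.17, limma adjusted p = 0.304). As the mean of its probe sets SERPINE2 was at -0.37 and PLG at -0.20. SERPINI1, near the threshold (limma adjusted p = 0.0452), lost its call in 10 alternative fits, with differences of -0.23 to -0.18. These included leaving out empty vector replicate 1, 2 or 4, or YAPS127A replicate 1, 3, 4 or 5.

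Among 20 other regulators of MMPs 4 rose and 3 fell (median +0.05). SPOCK1 (+0.87, SE 0.07, limma adjusted p = 3.94e-06) and SPOCK2 (+0.82), secreted proteoglycans that affect MMP activation, rose. LCN2, a lipocalin that stabilises MMP9, fell (-0.76, SE 0.07, limma adjusted p = 1.06e-05), as did THBS2, a thrombospondin that promotes MMP uptake (-0.62). With the neighbours' median removed THBS2 no longer passed (-0.23, limma adjusted p = 0.109) and SPOCK2 was at +0.51. Of 14 partners of ADAM10 and ADAM17 3 rose and 2 fell (median +0.06). PACS2, a sorting protein of ADAM17, fell (-1.59, SE 0.08, limma adjusted p = 7.96e-08) and ITGA5, an integrin subunit, did too (-0.56), while TSPAN14, a tetraspanin that carries ADAM10, rose by 0.57 and RHBDF1, which guides ADAM17 to the cell surface, by 0.77. With the neighbours' median removed TSPAN14 was at +0.21 and RHBDF1 at +0.43, and as means over probe sets PACS2 was at -0.94 and RHBDF1 at +0.42.

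Of 38 listed proteins known to be shed by ADAMs 36 were measured, of which 7 rose and 10 fell (median -0.05). The EGF receptor ligand genes AREG and EPGN were listed but not among the measured genes. VCAM1, an adhesion molecule, rose 4.44-fold (+2.15, SE 0.10, limma adjusted p = 7.01e-08), and the EGF receptor ligand genes BTC (-1.97), EGF (-1.92) and EREG (-0.87) fell, EREG by more as the mean of its probe sets (-1.34). EGF was dim in both groups, at 3.40 with YAPS127A, below the lower quartiles, and 5.32 with the empty vector. Other receptor ligand genes of the list rose, namely TGFA (+0.50) and HBEGF (+0.38), which bind the EGF receptor, and NRG1 (+0.82), which binds its relatives; these 3 were added after their values were seen. Of 33 other extracellular proteases 6 rose and 6 fell (median -0.05). The transmembrane serine protease genes TMPRSS2 (-3.05, SE 0.07, limma adjusted p = 3.47e-10) and TMPRSS4 (-2.26) fell, whereas PRSS8, the membrane serine protease prostasin, rose by 1.99 and PRSS23 by 0.64. As means over probe sets TMPRSS2 was at -0.96 and PRSS23 at +0.99.

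Of 25 matrix substrates 2 rose and 5 fell (median -0.02). VCAN, which encodes versican, a proteoglycan cut by several ADAMTS proteases, was 8.33-fold lower (-3.06, SE 0.10, limma adjusted p = 3e-09). FN1, which encodes fibronectin, and COL1A1 fell (-0.79 and -0.70), and the brain proteoglycan gene BCAN rose by 0.65. As means over probe sets these 3 were at -0.51, -0.40 and +0.22. The medians of the 6 lists lay between -0.12 and +0.06, beside 0.00 over all genes.

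Epithelial markers of bile duct cells were bright, with KRT19 at 14.21 with YAPS127A and 14.19 with the empty vector, and 8 of 10 in the list lay above the median of all probe sets. Of the 10, 1 rose (KRT8, +0.30), 2 fell and 7 did not pass. CFTR, the chloride channel of bile duct epithelium, fell (-2.72, SE 0.16, limma adjusted p = 3.78e-07), at 4.02 with YAPS127A, below the lower quartiles, and 6.74 with the empty vector, and SOX9, a transcription factor of these cells, fell by less (-0.25). Averaged per array, the 10 were at 10.95 to 11.05 with YAPS127A and 11.23 to 11.27 with the empty vector. Of 8 leukocyte markers 1 lay above that median, and the defining gene PTPRC was at 4.03 with YAPS127A and 4.05 with the empty vector, below the lower quartiles. The 8 averaged 4.62 to 4.76 per array with YAPS127A and 4.93 to 5.05 with the empty vector, and 2 of them fell. LYZ, the lysozyme gene, was at 5.18 with YAPS127A and 7.42 with the empty vector (-2.25, SE 0.11, limma adjusted p = 8.59e-08), and CD14 differed by -0.45. Among 10 fibroblast markers 3 lay above the median, LUM (+1.45) and POSTN (+0.89) rose and COL1A1 (-0.70) fell, while COL3A1 (4.90 with YAPS127A and 4.88 with the empty vector) and DCN (5.03 with YAPS127A and 5.00 with the empty vector) did not pass. Per array the 10 averaged 5.93 to 6.07 with YAPS127A and 5.72 to 5.86 with the empty vector. Among 8 endothelial markers 4 lay above the median, and ESAM (+0.54) and ROBO4 (+0.64) rose. The per-array means of those 8 lay between 5.60 and 5.76 with YAPS127A and between 5.40 and 5.52 with the empty vector. The part of other cell types in the results was not tested.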

How the data were processed

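Total RNA of 9 HuCCT1 samples, labelled with biotin, was hybridised to single-colour arrays, per the labels' protocols. The deposited values are taken as log2 signals per probe set, from their range of 1.62 to 14.8. The sources used here do not state how the authors corrected background, normalized and summarised probes. Array medians were nearly equal, and no further scaling was applied. There were 0 columns of other samples.

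With 62 control probe sets excluded, the other 54613 were fitted in limma 3.58.1 (R 4.3.3; lmFit, eBayes, no covariate, 11.4 total degrees of freedom), with Benjamini-Hochberg adjustment over all of them. A platform annotation named 1 gene for 41091 probe sets, several for 1801 and none for 11721; symbols of 41037 were brought up to date by gene ID from RefSeq (GRCh38.p14). On 45.4% of all probe sets, mostly dim, 2 or more arrays hold exactly the same value (52.0% of member probe sets, and 0 of the brightest probe sets of the 17 called members).

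Members and lists were chosen with earlier results of these data known. Named were 18 members in any case, called members with a difference of at least 0.5, and up to 4 called genes of each other list by p-value. The neighbours' median is that of up to 25 non-member genes on either side. Alternatives were quantile normalization, median centring, dim probe sets (by mean signal) left out, trend and robust eBayes, array weights, replicate block, each array left out, mean over probe sets, neighbours' median removed, an actin 3' to 5' gap covariate and, added after seeing the data, both arrays with the largest gap left out. The procedure was tested on simulated data with known changes. Of 50 planted log2 differences of each size, 10% were recovered at 0.25, 42% at 0.5, 82% at 1 and 100% at 2. The other probe sets of the 54613 were left unchanged, whereas 23.9% of all probe sets were called in the real data. There were 3 false calls. Most planted differences of 0.25 and 0.5 were thus missed in this simulation. The Benjamini-Hochberg adjustment is stricter when fewer probe sets differ, so these shares do not give the recovery in the real fit. Figures used matplotlib 3.10.9 in Python 3.11.15.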

Additional observations from a re-analysis of the deposited data

Results flagged for a closer look

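Of 96 groups of arrays tested (24 named members and 24 other named genes in both groups), 5 had 1 array far from the others, and chance flags about 1 in 20. MMP2 in YAPS127A replicate 2 was at 6.18, with the others between 5.89 and 5.93. ADAM15 in YAPS127A replicate 3 was at 8.94, with the others between 9.11 and 9.18. ADAMTS1 in empty vector replicate 4 was at 4.84, with the other 3 at exactly 5.20. SERPINI1 in YAPS127A replicate 3 was at 5.43, with the others between 5.61 and 5.68, and PRSS8 in the same sample was at 9.03, with the others between 9.35 and 9.48.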

How the results depend on the processing

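Across 10 alternatives and 9 fits with 1 array left out, 14 of the 17 called members kept their call in every fit that tested them, namely 4 higher (MMP14, MMP19, PLAT and TIMP2) and 10 lower; the exceptions were MMP15, ADAM22 and ADAMTS6, and without dim probe sets ADAM11, ADAM21, MMP10, MMP12 and MMP13 were not tested. MMP7, MMP1, MMP10, MMP12, MMP13 and PLAT have 1 probe set each, so the mean over probe sets repeats their main value and is no separate check. No called gene among those named changed sign. The sign turned in 5 genes that had not passed and did not pass then: ADAM9 with the mean over probe sets (+0.07) and the neighbours' median removed (+0.06), MMP2 (+0.03) and TIMP3 (+0.08) with the mean over probe sets, TIMP4 with the neighbours' median removed (+0.11), and TIMP1, near 0 throughout, in 4 fits (up to +0.03). The 5 member genes that rose became 8 with the mean over probe sets and 9 with the neighbours' median removed. The 14 member probe sets that rose became 23 with the neighbours' median removed and lay between 9 (without empty vector replicate 4) and 14 with 1 array left out. The 12 falling genes ranged from 10 to 14 over all fits. With the replicate block, 5 members rose and 12 fell, as without it. Deviations of same-numbered arrays had correlations of -0.25, 0.04, 0.01 and 0.03, within the -0.25 to 0.24 of all pairs across the groups. These values cannot tell whether same-numbered samples share a culture or a day, which the labels do not give. The cause of these moves was not tested. Array number and dim signal limit the precision: 34 members were no brighter than the median of all probe sets, and 15 lay below the lower quartile.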
